A study of Bos taurus with 10 samples.

Results

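The actin cytoskeleton shapes every cell of the early embryo, and 10 genes of it were followed here: the non-muscle actins ACTB and ACTG1, the monomer and filament regulators CFL1, PFN1 and TMSB10, the branching subunit ARPC2, the filament partners TPM1 and MYL6, and the membrane linkers EZR and MSN. They were chosen by symbol among the 10 genes' probes on a 1-colour bovine oligonucleotide array, which gave 45 of the 43653 probes. Embryos of superovulated cows were flushed on day 7 after a first insemination, and RNA of 10 embryo samples was hybridised to 1 array each. All cows were superovulated and inseminated 108 and 120 h after that treatment began. The vehicle group (2 samples) has DMSO as its treatment label, and how it was given is not described there. The other cows were infused intravenously at 48 h with senktide for 2 h, at 30 nmol/min (senktide30, 4 samples) or at 300 nmol/min (senktide300, 4 samples). Senktide is a tachykinin-like peptide that activates the neurokinin-3 receptor, and the study asked how its infusion bore on the quality and stage of the embryos. Neither the number of cows nor the number of embryos behind a sample is stated in the labels. The p-values therefore reflect the spread among these 10 samples alone, part of which may be technical. In samples of whole embryos, fewer cells of a type and less RNA per cell cannot be told apart.

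Actin monomers join into filaments that are nucleated by formins or branched by the Arp2/3 complex, severed by cofilins and held as a monomer reserve by thymosins and profilin. In the preimplantation embryo these filaments form a cortex that drives compaction, and the ERM proteins ezrin, radixin and moesin tie that cortex to the apical membrane of outer cells, where ezrin marks microvilli. In the blastocyst the same filaments brace the junctions of the trophectoderm, the outer epithelium that seals the fluid-filled cavity.

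The arrays lay on 3 slides. Slides 1 and 2 held 1 sample of each group and slide 3 held the other 4 senktide samples and no vehicle sample. The share of spots well above background, the scanner software's own flag, was 18.3 to 19.6% on slide 3 and 7.17 to 13.2% on slides 1 and 2. Of 9 trophectoderm markers with probes, 7 or 8 were well above background on every array, with keratins KRT8, KRT18 and KRT19 on all 10, while CDX2 was on none. Of 10 stroma and smooth muscle markers, 0 were well above background in vehicle samples, 0 or 1 in senktide30 samples and 1 or 2 in senktide300 samples. COL1A2 was on 2 senktide30 and 3 senktide300 arrays, DCN on 2 senktide300 arrays and DES on 1 senktide300 array. ACTA2, MYH11, CNN1, TAGLN and VIM, which mark muscle or mesenchyme, were on no array. Of 9 leukocyte and blood markers, LYZ was on all 10 arrays, with 1 gene of the list read in vehicle samples and 1 to 4 in either senktide group. Counts of 4 were those of slide 3, and the senktide arrays of slides 1 and 2 read 1 or 2. The leukocyte list's summed scaled signal ran from 0.72 to 0.73 in vehicle, 0.45 to 0.78 in senktide30 and 0.49 to 0.55 in senktide300 samples. The stroma list's ran from 0.66 to 1.14, 0.14 to 0.84 and 0.16 to 0.66. By slide the stroma sums were 0.14 to 0.17 on slide 3 and 0.50 to 1.14 on slides 1 and 2. Most genes in them were not well above background. Of 4 uterine and oviduct epithelium markers with probes, 0 or 1 were well above background in vehicle, 1 or 2 in senktide30 and 0 or 1 in senktide300 samples, with sums of 0.31 to 0.49, 0.08 to 0.37 and 0.05 to 0.34, lowest on slide 3. CLU was on 1 vehicle, 4 senktide30 and 3 senktide300 arrays and MUC1 on 1 senktide30 array, while OVGP1 and PAEP were on no array. Of 3 inner cell mass markers, 1 was well above background in vehicle samples and 1 or 2 in either senktide group, with 2 on slide 3 alone. Their sums were 0.35 to 0.45, 0.24 to 0.45 and 0.22 to 0.40, lowest on slide 3. The part of all these markers in the results was not tested.

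The probes are the sequences that were read, so those on which the members' results turn are shown, each 60 bases long and in part where only a stretch matters. The first 2 lie upstream in their transcripts. An ACTG1 probe at transcript position 719 (chr19:52749943-52750002, plus strand, build Btau_3.1) gave the smallest adjusted p of the members in the higher dose. It was well above background on 0 vehicle arrays and 2 arrays of each senktide group, so it was tested through the senktide arrays alone. A TMSB10 probe at position 58 (chr11:51855557-51855616, minus strand) is shown from its first ATG, in capitals.
ACTG1 719: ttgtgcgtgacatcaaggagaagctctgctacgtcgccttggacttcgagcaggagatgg
TMSB10 58: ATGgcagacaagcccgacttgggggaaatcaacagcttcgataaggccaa

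Near the other end of the transcript, the array carried overlapping probes that differ by 1 base. For TMSB10 these start at positions 363 (chr11:51854969-51855028) and 367 (chr11:51854965-51855024), share 56 bases and differ at T20C, counted from base 1 of the first probe. For ACTG1 they start at positions 1589 (chr19:52751008-52751067) and 1590 (chr19:52751009-52751068), share 59 bases and differ at C27T. Capitals mark the differing base, and both probes of each pair were well above background on all 10 arrays.
TMSB10 363: ggactgccaaatttTtccggtttgccctgg
TMSB10 367: ggactgccaaatttCtccggtttgccctgg
ACTG1 1589: gctgcctattcCaggatttctctagaggct
ACTG1 1590: gctgcctattcTaggatttctctagaggct

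A further TMSB10 probe at position 391 (chr11:51854941-51855000, minus strand) overlapped the probe at 367 by 36 bases with 0 differences. It was well above background on 7 of 10 arrays, which were no vehicle array, 3 senktide30 arrays and all 4 senktide300 arrays. Its last 30 bases hold AATAAA, in capitals, the letters of the common polyadenylation signal.
TMSB10 391: tgattaatgaaAATAAAacacacctcgtgg
AATAAA stood on the probe's own strand in 7 of the 45 member probes (15.6%) and in 9.35% of all 43653 probes, and on either strand in 11 (24.4%) and 12.5%. The other 6 were probes of ACTB at 1780, ACTG1 at 1883 and 1888, MYL6 at 623 and MSN at 3896, each on all 10 arrays, and of TPM1 at 1071, on none.

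Of the 45 member probes, 20 were well above background on all 10 arrays, 28 on at least 2 arrays and 17 on none. Each vehicle array read 20 or 22 of them, the senktide30 arrays 20 to 28 and the senktide300 arrays 21 to 28, and the 4 arrays of slide 3 read 28 each. ACTB, ACTG1, TMSB10, ARPC2, MYL6 and MSN had every probe on at least 2 arrays. CFL1, the filament-severing cofilin, had 2 of 7, PFN1, the profilin that loads monomers onto filament ends, had 1 of 3, and EZR had 2 of 3. TPM1, a tropomyosin that lies along filaments, had 9 probes and none was well above background on any array, so no level or difference is given for it.

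Where a probe lay on its transcript went with whether it was read. Among the 9 genes with several RefSeq probes, the most downstream probe was well above background on all 10 arrays for 7 genes and the most upstream for 2, TMSB10 and MYL6. That count leaves out 3 member probes listed under EST accessions. Of these, a CFL1 probe (chr29:45870971-45871030) overlaps the CFL1 probe at 1011 in the genome and reaches further downstream. It was read on 0 arrays, and the probe at 1011 on 10. ACTB was read on 10 arrays at positions 1587 and 1780, on 4 at 931 and on 5 at its remaining probe. EZR was read on 10 arrays at 2420, on 5 at 2074 and on none at 847, where the probe's ends lie far apart in the genome (chr9:98925234-98933688) and so cross an intron. The same held over the array: of 1078 other RefSeq transcripts with several probes and at least 1 read on every array, 87.6% had their most downstream probe and 22.3% their most upstream probe on all 10, against 87.5% and 25% of the 8 such member transcripts. Probes of ACTB at 931, ACTG1 at 719 and CFL1 at 936 were well above background on the 4 arrays of slide 3 alone. Exon, intron and UTR annotation of this build was not used here.

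**Figure D1:**
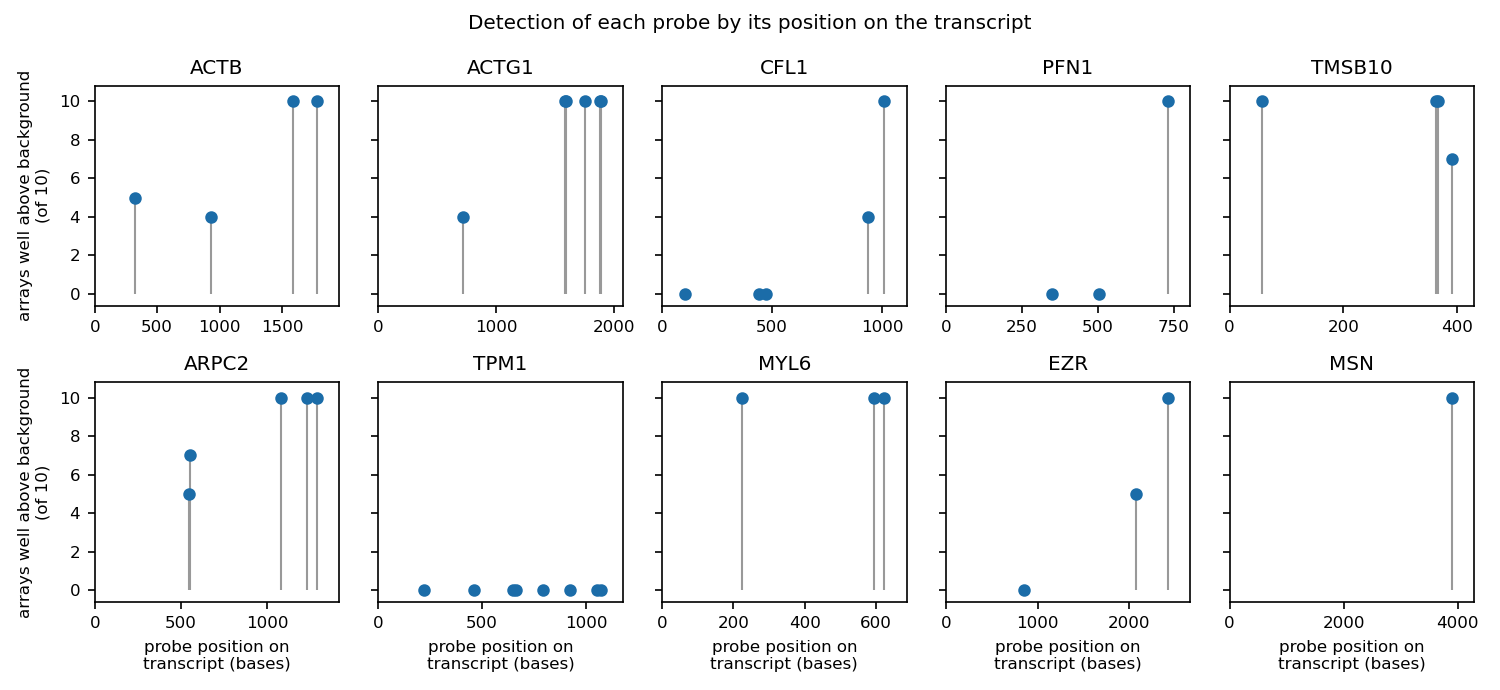
Number of arrays, of 10, on which each RefSeq probe was well above background (y axis) against the probe's position on the transcript in bases (x axis), 1 panel per gene. Downstream probes of ACTB, ACTG1, CFL1, PFN1, ARPC2 and EZR reach 10 arrays while their upstream probes stay at 7 or fewer, TMSB10 and MYL6 are read upstream too, and TPM1 stays at 0.

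Levels are log2 processed signals minus the array's 75th percentile over the 2491 probes well above background on every array, so 0 marks that percentile. A gene is given by its tested probe of highest mean, and levels of different probes are not set against each other. Each of the 9 gene probes was well above background on all 10 arrays. Their coordinates in Btau_3.1 are chr25:40638528-40638587 for ACTB, chr19:52751302-52751361 for ACTG1, chr29:45871003-45871062 for CFL1 and chr19:26824361-26824420 for PFN1. Those of TMSB10 are given above, and the rest are chr2:110685068-110685127 for ARPC2, chr5:61726904-61726963 for MYL6, chr9:98917504-98917563 for EZR and chrX:56856168-56856227 for MSN.

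The members as a whole showed no difference between groups that passed the test. With limma over all 8938 tested probes and Benjamini-Hochberg adjustment at 0.05, 0 of the 28 tested member probes were called in senktide30 against vehicle (0% of all tested probes were), 0 in senktide300 against vehicle (0.0112% of all) and 0 in senktide300 against senktide30 (0% of all). At an unadjusted p under 0.05, 3 member probes were higher and 1 lower in senktide30 than in vehicle (4.93% and 6.32% of all tested probes), 4 were higher and 1 lower in senktide300 than in vehicle (5.88% and 7.94%), and 0 were higher and 0 lower in senktide300 than in senktide30 (1.69% and 1.31%). The median difference of the 9 gene probes was 0.29 in senktide30 against vehicle and 0.32 in senktide300 against vehicle, beside -0.11 and -0.11 over all tested probes and -0.06 and -0.06 over the 2491 probes read on every array. Of the 9, 6 were higher than vehicle at either dose, where 40% and 40.6% of all tested probes were. Both comparisons use the same 2 vehicle samples. The ACTG1 probe at 719, read on senktide arrays alone, was among those higher at unadjusted p under 0.05 at either dose.

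That offset from the other probes depended on the normalization. The gene probes' median lay 0.40 and 0.43 above that of all tested probes in the 2 comparisons with vehicle, 0.12 and 0.12 above it after normexp with quantile normalization, 0.83 and 0.92 above it with each array's values raised to its lowest signal well above background, and -0.04 and -0.03 from it after quantile normalization. Scaling to the 75th percentile of all probes moved the median of all tested probes from -0.11 to 0.95 in senktide30 and to 1.06 in senktide300 against vehicle. This scaling subtracts 1 value per array from every probe, so it moved the 9 gene probes alike and kept their offset of 0.40 and 0.43 by construction. With values raised to the lowest signal well above background, the gene probes' median stayed at 0.29 and 0.32. That of all tested probes fell to -0.54 and -0.60.

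**Figure D2:**
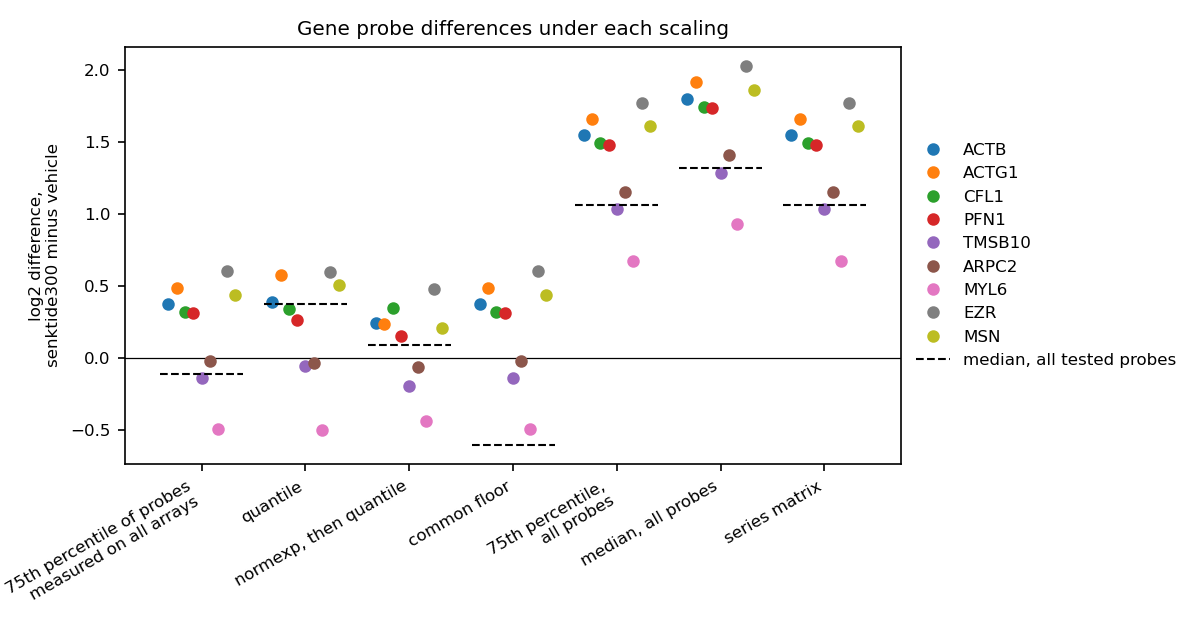
Difference of senktide300 minus vehicle on the log2 scale (y axis) for the 9 gene probes (coloured points) under 7 scalings (x axis), with the median of all tested probes as a dashed line. Under the 3 scalings at the right every gene probe and the dashed line lie above 0, and under quantile normalization the line lies at 0.37, among the gene probes.

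ACTB, the cytoplasmic beta-actin, had levels of 3.21 and 2.67 in vehicle samples, of 3.56, 3.57, 3.45 and 3.40 in senktide30 samples and of 3.42, 3.29, 3.35 and 3.21 in senktide300 samples. Every senktide30 sample lay above both vehicle samples, while the lowest senktide300 sample lay level with the higher vehicle sample. The difference from vehicle was 0.55 (SE 0.20, adjusted p = 0.375) in senktide30 and 0.37 (SE 0.20, adjusted p = 0.418) in senktide300. Within slides 1 and 2 it was 0.35 and 0.90 in senktide30 and 0.20 and 0.62 in senktide300, with 1 sample a group on each slide. Without vehicle sample 2, its lowest value, the senktide300 difference was 0.0996.

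The ACTB probes did not go the same way. A second downstream probe, at position 1587 (chr25:40638335-40638394), was 0.65 higher in senktide30 than in vehicle (SE 0.19, adjusted p = 0.309), which was the smallest adjusted p of the members in that comparison. A further ACTB probe, listed by the files under the accessions of both ACTB and ACTG1 so that its signal cannot be assigned to one actin, had levels of -3.72 and -2.90 in vehicle samples and differed from vehicle by -1.30 in senktide30 (adjusted p = 0.424) and by -1.39 in senktide300 (adjusted p = 0.315). It was well above background on 1 vehicle array and on 2 arrays of each senktide group, those of slide 3. The ACTB probe at 931, on 0 vehicle arrays, had measured mean levels of -4.36 in vehicle, -3.76 in senktide30 and -3.86 in senktide300 samples. Averaged over all 4 probes, the difference from vehicle was 0.13 in senktide30 and -0.02 in senktide300. That mean includes the probe that cannot be assigned to one actin, so it is not a value of ACTB alone.

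ACTG1, the gamma-actin that non-muscle cells make beside beta-actin, had levels of 4.92 and 5.07 in vehicle samples, of 5.19, 5.52, 5.22 and 5.36 in senktide30 samples and of 5.46, 5.31, 5.74 and 5.41 in senktide300 samples. All senktide samples lay above both vehicle samples. The differences from vehicle were 0.33 (SE 0.20, adjusted p = 0.516) in senktide30 and 0.49 (SE 0.20, adjusted p = 0.329) in senktide300. Of its 5 downstream probes, the pair at 1589 and 1590 gave 0.19 and 0.27 in senktide30 and 0.14 and 0.29 in senktide300. The probe at 1888 gave 0.13 in senktide30 (adjusted p = 0.836) and 0.17 in senktide300 (adjusted p = 0.735), and its groups overlapped in both. The probe at 1758 gave -0.05 in both comparisons, and vehicle sample 2 was its highest value at 3.80.

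The upstream ACTG1 probe at 719 was not well above background in vehicle samples and was so on 2 arrays of each senktide group. Where a probe is dim throughout a group, only a bound can be stated, set by the lowest signal that each array still called well above background. On that basis no fold is given for it at either dose. Its measured mean levels were -3.32 in senktide300 and -4.41 in vehicle samples (adjusted p = 0.258).

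**Figure D3:**
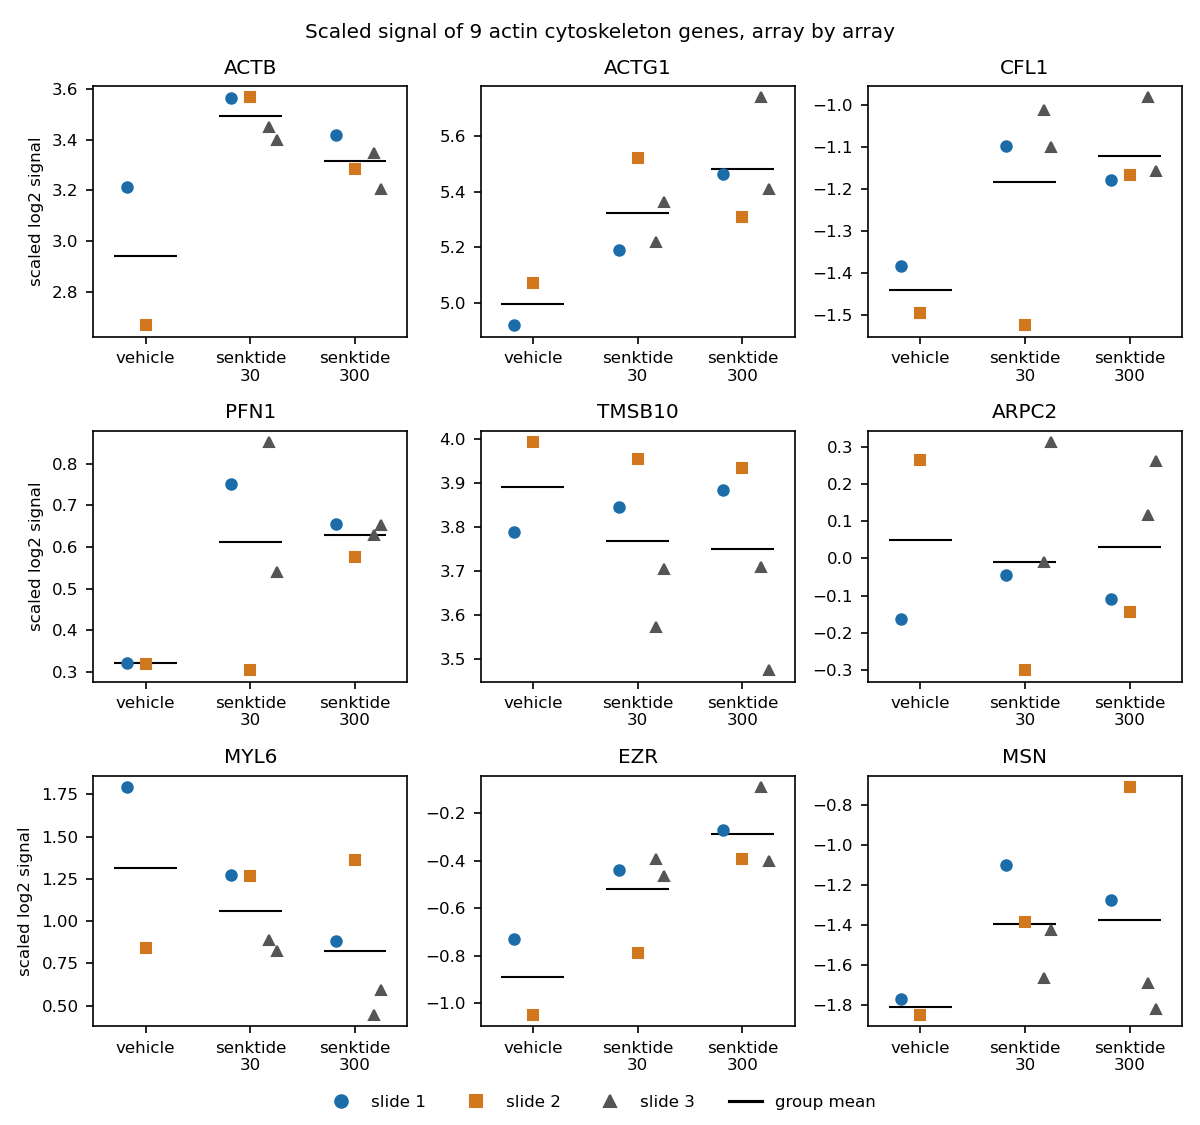
Scaled log2 signal (y axis) of the 9 gene probes in each sample, by group (x axis), with marker shape and colour for the slide and a line at the group mean. ACTG1 lies above both vehicle samples in all 8 senktide samples, EZR lies above them in all senktide300 samples, and MYL6 has its highest value in 1 vehicle sample.

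CFL1 had levels of -1.38 and -1.50 in vehicle samples, of -1.10, -1.52, -1.01 and -1.10 in senktide30 samples and of -1.18, -1.17, -0.98 and -1.16 in senktide300 samples. The senktide300 samples lay above both vehicle samples, and senktide30 sample 2 lay below both. The differences from vehicle were 0.26 (SE 0.20, adjusted p = 0.600) in senktide30 and 0.32 (SE 0.20, adjusted p = 0.462) in senktide300.

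PFN1 had a level of 0.32 in each vehicle sample, levels of 0.75, 0.30, 0.85 and 0.54 in senktide30 samples and levels of 0.66, 0.58, 0.63 and 0.65 in senktide300 samples. The senktide300 values lay close together and above vehicle, whereas the senktide30 values spread from below vehicle upward. PFN1 was 0.29 above vehicle in senktide30 (SE 0.20, adjusted p = 0.555) and 0.31 above it in senktide300 (SE 0.20, adjusted p = 0.471).

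TMSB10, a thymosin that binds actin monomers, had levels of 3.79 and 3.99 in vehicle samples, of 3.85, 3.95, 3.57 and 3.71 in senktide30 samples and of 3.88, 3.93, 3.71 and 3.48 in senktide300 samples. The groups overlapped, and the 4 lowest values were those of slide 3. The differences from vehicle, -0.12 in senktide30 (SE 0.21, adjusted p = 0.836) and -0.14 in senktide300 (SE 0.21, adjusted p = 0.767), turned to 0.02 and 0.00492 with slide as a block and to 0.94 and 1.03 when scaled to all probes. Its partner probe at 363, with the differing base, gave -0.28 and -0.31, and the upstream probe at 58 gave -0.01 and -0.14.

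ARPC2, the subunit through which the Arp2/3 complex docks on the mother filament, had levels of -0.16 and 0.26 in vehicle samples, of -0.04, -0.30, -0.01 and 0.31 in senktide30 samples and of -0.11, -0.14, 0.12 and 0.26 in senktide300 samples. The groups overlapped throughout. The differences from vehicle were -0.06 (SE 0.24, adjusted p = 0.928) in senktide30 and -0.02 (SE 0.24, adjusted p = 0.980) in senktide300, and both were above 0 when scaled to all probes (1.00 and 1.15). The most downstream probe, at 1287 (chr2:110685274-110685333), gave 0.53 in senktide300 (SE 0.25, adjusted p = 0.374), with the groups apart, and 0.31 in senktide30 (adjusted p = 0.604).

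MYL6, the essential light chain of non-muscle and smooth muscle myosin, had levels of 1.79 and 0.84 in vehicle samples, of 1.27, 1.26, 0.89 and 0.82 in senktide30 samples and of 0.88, 1.36, 0.44 and 0.59 in senktide300 samples. Vehicle sample 1 was the highest of the 10 and vehicle sample 2 lay among the senktide samples. The differences from vehicle were -0.26 (SE 0.34, adjusted p = 0.770) in senktide30 and -0.50 (SE 0.34, adjusted p = 0.488) in senktide300. Within slides 1 and 2 they were -0.52 and 0.42 in senktide30 and -0.91 and 0.52 in senktide300, and scaled to all probes they were 0.80 and 0.68. Its 2 other probes gave -0.49 and -0.38 in senktide30 and -0.68 and -0.47 in senktide300.

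EZR, the ezrin of microvilli, had levels of -0.73 and -1.05 in vehicle samples, of -0.44, -0.79, -0.39 and -0.46 in senktide30 samples and of -0.27, -0.39, -0.09 and -0.40 in senktide300 samples. Every senktide300 sample lay above both vehicle samples, and senktide30 sample 2 lay between them. EZR was 0.37 higher in senktide30 (SE 0.20, adjusted p = 0.497) and 0.60 higher in senktide300 (SE 0.20, adjusted p = 0.275) than in vehicle samples. Within slides 1 and 2 the differences were 0.29 and 0.26 in senktide30 and 0.46 and 0.66 in senktide300. The EZR probe at 2074 (chr9:98917851-98917910) was well above background on 0 vehicle, 2 senktide30 and 3 senktide300 arrays, with no fold at either dose.

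MSN, the moesin that shares ezrin's membrane-binding fold, had levels of -1.77 and -1.85 in vehicle samples, of -1.10, -1.38, -1.66 and -1.43 in senktide30 samples and of -1.27, -0.71, -1.69 and -1.82 in senktide300 samples. All senktide30 samples lay above vehicle, and senktide300 sample 4 lay between the vehicle samples. The differences from vehicle were 0.42 (SE 0.31, adjusted p = 0.585) in senktide30 and 0.44 (SE 0.31, adjusted p = 0.509) in senktide300. Among senktide samples the mean on slide 3 minus that on slides 1 and 2 was -0.53 for MSN, -0.51 for MYL6, -0.29 for TMSB10 and 0.32 for ARPC2.

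Counted over probes, the groups did not overlap for 7 member probes higher and 2 lower in senktide30 than in vehicle, where 7.63% and 11.9% of all tested probes were, and for 8 higher and 1 lower in senktide300, where 9.25% and 16.3% were. The 28 tested probes stand for 9 genes and some overlap in sequence. Some were read on senktide arrays alone, among them the ACTG1 probe at 719 and the EZR probe at 2074. Of the 9 gene probes, ACTB, ACTG1 and MSN were apart in senktide30 and ACTG1, CFL1, PFN1 and EZR in senktide300, all higher, beside 7.91% and 9.19% of the 2491 probes read on every array. None of these passed the adjusted test.

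**Figure D4:**
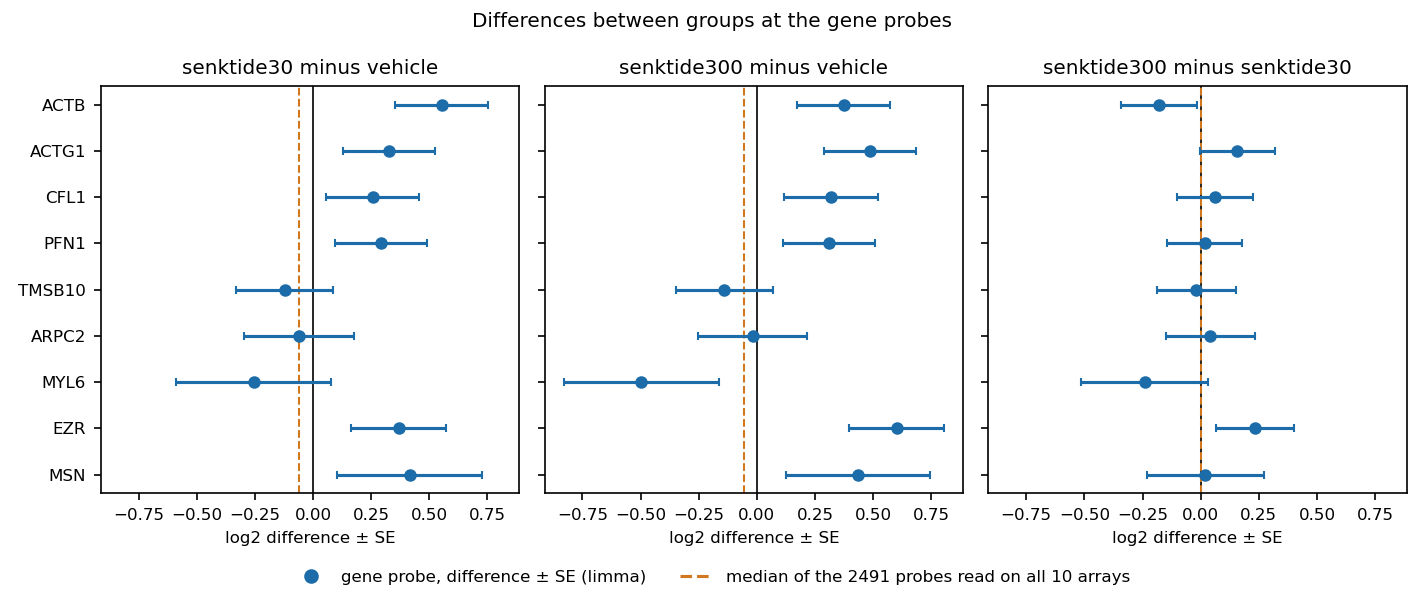
Difference between groups on the log2 scale with its limma standard error (x axis) for the 9 gene probes (rows), 1 panel per comparison, with the median of the 2491 probes read on every array as a dashed line. ACTB, ACTG1, CFL1, PFN1, EZR and MSN lie at 0.26 or more against vehicle at both doses, and in senktide300 minus senktide30 the points lie between -0.24 and 0.23.

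Between the doses, the 9 gene probes differed by -0.24 (MYL6) to 0.23 (EZR), with a median of 0.02 and 6 of 9 above 0, where 48.3% of all tested probes were higher. All adjusted p were 0.999. ACTB, at -0.18 (SE 0.16), was lower in senktide300 than in senktide30 on each slide (-0.15, -0.28 and -0.15), and EZR was higher on each (0.17, 0.40 and 0.18). Each of the other gene probes changed sign between slides. The member probes' groups did not overlap in 0 cases, where 1.56% of all tested probes were apart and higher and 1.14% apart and lower.

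The other genes of these pathways, in 5 lists that leave the members out, had 0 genes called in any comparison. Of 8 further Arp2/3 subunits 7 were tested, with a median difference from vehicle of 0.21 in senktide30 and 0.45 in senktide300. ARPC5 was well above background on 0 vehicle, 2 senktide30 and all 4 senktide300 arrays. Its measured mean levels were -3.41 in senktide300 and -4.85 in vehicle samples (adjusted p = 0.100), for which no fold is given, and of the 2 further ARPC5 probes tested, 1 had the opposite sign. ACTR2, the complex's actin-like core subunit, was well above background on 0 vehicle, 3 senktide30 and 4 senktide300 arrays and was at least 1.02-fold higher in senktide300 (adjusted p = 0.181), or at least 2.30-fold when scaled to all probes. Without senktide300 sample 3 no ACTR2 fold could be given, and none is given in senktide30.

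Of 20 turnover genes 11 were tested, with medians of 0.21 and 0.33 against vehicle. CAPZA1, a subunit that caps growing filament ends, had mean levels of -1.69 in vehicle, -1.11 in senktide30 and -1.01 in senktide300 samples, differences from vehicle of 0.58 (SE 0.18, adjusted p = 0.316) and 0.68 (SE 0.18, adjusted p = 0.225). CAPZA2, its close relative, differed by 0.40 (adjusted p = 0.511) and 0.63 (adjusted p = 0.305), and the second CAPZA2 probe had the opposite sign.

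Of 20 symbols of membrane linkers and ERM regulators 10 were tested, with medians of -0.04 and -0.03. Among the tested symbols, SLC9A3R1 and NHERF1 are 2 names of 1 gene, whose probe was counted under both. RDX, radixin, the third ERM protein, had a mean level of -3.98 in senktide30 and -2.56 in vehicle samples (difference -1.42, SE 0.38, adjusted p = 0.288) from 2 and 1 arrays well above background, and of the 2 further RDX probes tested, 1 had the opposite sign. EPB41L5, a FERM protein of epithelial polarity, differed by -0.87 (adjusted p = 0.476) and -1.11 (adjusted p = 0.319), values that turned to 0.19 and 0.0646 when scaled to all probes. PLS1, the plastin that bundles filaments in microvilli, was on 3 senktide300 and 0 vehicle arrays and no fold is given.

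Of 16 actomyosin and tropomyosin genes 12 were tested, with medians of -0.09 and -0.11. TPM3, a tropomyosin, had mean levels of -3.01 in senktide30 and -3.77 in vehicle samples (adjusted p = 0.476) at a probe read on 3 senktide30 and 0 vehicle arrays, with no fold, while the 3 further TPM3 probes tested had the opposite sign. MYL12B, a regulatory light chain, was on 0 vehicle, 1 senktide30 and 2 senktide300 arrays. MYL6B, the paralog of MYL6, was on 1 senktide300 and 0 vehicle arrays, and no fold is given for either. Their measured mean levels were lower with senktide. Those of MYL12B were -3.13 in vehicle, -4.34 in senktide30 (adjusted p = 0.466) and -4.79 in senktide300 samples (adjusted p = 0.284). Those of MYL6B were -3.30 in vehicle and -5.24 in senktide300 samples (adjusted p = 0.519).

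Of 7 other actins and actin-related genes 3 were tested. ACTL6A, an actin-related subunit of chromatin remodelling complexes, was well above background on 0 vehicle, 3 senktide30 and 4 senktide300 arrays. It was at least 1.05-fold higher in senktide30 (adjusted p = 0.204) and at least 1.06-fold higher in senktide300 (adjusted p = 0.172), or 2.18-fold and 2.40-fold when scaled to all probes. Without senktide30 sample 4 no senktide30 fold could be given, and in senktide300 1 of 2 further probes had the opposite sign. ACTR1B, of the dynactin filament, was on 1 vehicle, 2 senktide30 and 0 senktide300 arrays. It differed from vehicle by -0.96 (adjusted p = 0.597) in senktide30, a value of 0.10 when scaled to all probes and of -1.65 to -0.26 with 1 sample left out at a time. In senktide300 it was 2.37-fold lower (difference -1.25, SE 0.74, adjusted p = 0.444), which is the measured difference and no lower bound. The fold was 1.05 when scaled to all probes and 3.83 without vehicle sample 2. Without vehicle sample 1 no fold could be given.

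Across the 10 arrays, CFL1 and PFN1 lay nearest to the mean profile of the 9 gene probes after centring, with root mean square differences of 0.139 and 0.143, and MYL6 lay farthest, at 0.389. Each of the 9 enters that mean itself, unlike the probes outside the lists. Of 2101 named probes outside all lists that were read on every array, the 5 nearest to that profile were TOMM20 (0.0688), RPL38 (0.0815), PSMA7 (0.0834), FTH1 (0.0905) and H3-3A (0.0925), and the median distance was 0.244. The arrays share slides and scaling, so this likeness is a description of 10 arrays. Vehicle sample 2 had the lowest value of the mean profile (-0.23), followed by vehicle sample 1 (-0.09), and senktide300 sample 2 the highest (0.14).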

How the data were processed

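Total RNA of the 10 embryo samples was labelled with Cy3 and read on 1-colour arrays, per the labels, whose extraction text speaks of endometrium. The deposited scanner files hold intensity per spot, background-subtracted and detrended within the array per the file headers, which name Feature Extraction 11.5.1.1 (10.5.1.1 in the submitters' processing notes). The deposited files also carry flags, coded 0 or 1, for detection and for outlier spots. The deposited series matrix holds log2 values; set against the scanner files, each column equalled log2 signal less the 75th percentile of its array's spots and less the median of each probe (tolerance 0.01, 99.96% or more of values), so scale, centring and direction are known. Its column medians ran from -0.31 to 0.22.

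Spots flagged as outliers were not used; 0 were saturated. Tests covered the 8938 of 43653 probes detected (well above background) on 2 or more arrays; 32467 were detected on none. limma 3.58.1 (R 4.3.3) fitted 1 coefficient per group over the 10 arrays, with Benjamini-Hochberg adjustment at 0.05. The fit was tested on simulated data with known changes. The number of arrays limits the precision. RefSeq names (ARS-UCD2.0, names only) were found through the main accession for 20595 probes, a symbol for 10745, a synonym for 376 and further accessions for 708; the file's own name stood for 2558, and 8671 were unnamed. Coordinates and sequences are those of the files (Btau_3.1).

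A bound sets the brighter group's mean against the dim group's mean of, per array, the higher of the probe's own signal and the array's lowest spot signal well above background. Named are all members, the 2 genes of smallest p per list and comparison, and the 5 probes most like the members; a further pathway list and 1 probe sequence are not reported here. Members and lists were chosen with earlier results of these data known. Slide and scan mark the same arrays. Deviations from the group means correlated at r = 0.487 to 0.574 in same-numbered senktide300 and senktide30 samples. In differently numbered ones r was 0.414 to 0.544 within slide 3 or across slides 1 and 2. Between slide 3 and slides 1 and 2 it was -0.531 to -0.471. The main fit used no pairing, and an alternative fit with the replicate number as a block treated equal numbers as pairs. On slides 1 and 2 these pairs cannot be told apart from the slides, and slide 3 held both other pairs. With vehicle there were 2 pairs (r = 0.124 and -0.188 in senktide30, 0.179 and -0.198 in senktide300). Alternatives were other scalings, filters, blocks and left-out samples. Files were read with pandas 2.3.3 and numpy 2.4.6 under Python 3.11.15, and plots made with matplotlib 3.10.9.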

Additional observations from a re-analysis of the deposited data

Results flagged for a closer look

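The CFL1 gene probe stood out in senktide300 sample 3, at -0.98, with the other 3 senktide300 samples between -1.18 and -1.16, a gap that was most of the group's range. It was 1 of 18 groups of 4 samples examined, and chance flags about 1 in 20.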

How the results depend on the processing

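Under the alternatives, 0 member probes were called, as before, with 1 exception: after normexp with quantile normalization 1 member probe was called in senktide30 against vehicle (smallest adjusted p = 0.0419), the ACTB probe at position 1587. That setting also called CAPZA1 in senktide300 (0.50, adjusted p = 0.0387), while over all tested probes it called 36 in senktide30 and 107 in senktide300 against vehicle, and quantile normalization alone called 107 and 142. Over all alternatives the smallest adjusted p of the member probes ran from 0.0419 to 0.891 in senktide30 and from 0.0647 to 0.593 in senktide300 against vehicle. The replicate block called 0 member probes in each comparison and, like slide as a block, turned TMSB10 to 0.0234 in senktide30 and 0.00492 in senktide300 against vehicle; the pairing changed no call. On slides 1 and 2 alone TMSB10 was 0.00949 and 0.0188 against vehicle and 0.00933 between doses. The cause of the other sign changes was not tested. With the 75th percentile over all probes, TMSB10, ARPC2 and MYL6 were 0.94, 1.00 and 0.80 in senktide30 and 1.03, 1.15 and 0.68 in senktide300 against vehicle, TMSB10 was 0.0962 between doses, EPB41L5 was 0.19 and 0.0646 against vehicle, and in senktide30 ACTR1B was 0.10. Scaled to the median of all probes the same values were 1.20, 1.26 and 1.07, then 1.29, 1.41 and 0.93, then 0.0859, then 0.45, 0.32 and 0.37. In the series matrix they were 0.94, 1.00 and 0.80, then 1.03, 1.15 and 0.67, then 0.0958, then 0.19, 0.0638 and 0.10. Between doses, PFN1 was -0.0179 after quantile and -0.0440 after normexp with quantile normalization, where ACTG1 was -0.00584. Leaving out 1 sample at a time, differences from vehicle ran from -0.27 to 0.15 (ARPC2) and -0.73 to 0.22 (MYL6) in senktide30 and from -0.23 to 0.19 (ARPC2) in senktide300. Between doses the ranges were -0.0550 to 0.15 (ARPC2), -0.0517 to 0.12 (CFL1), -0.20 to 0.17 (MSN), -0.0858 to 0.0968 (PFN1) and -0.0842 to 0.0734 (TMSB10). Leaving out a vehicle sample, with the remaining one assumed to vary like the senktide groups, called 32 to 50 of all tested probes against vehicle, and 0 member probes. Signal over background limits the upstream probes, CFL1 and TPM1.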

Other observations

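Between the doses, the pathway genes of smallest p included subunits of the Arp2/3 complex and filament regulators, none of them called (all adjusted p = 0.999). ARPC5 was 0.41 higher in senktide300 than in senktide30 (SE 0.18), and ACTR3, the other actin-like core subunit, 0.34 higher (SE 0.21). GSN, gelsolin, which severs and caps filaments, had mean levels of -0.79 in senktide300 and -1.19 in senktide30 samples (difference 0.40, SE 0.20). RDX had mean levels of -2.98 in senktide300 and -3.98 in senktide30 samples (difference 0.99, SE 0.31). VCL, vinculin of cell junctions, differed by 0.22 (SE 0.17), MYL12A, a regulatory light chain, by 0.25 (SE 0.15), ACTR1A of dynactin by 0.35 (SE 0.21), and TWF2, a twinfilin that binds monomers, by -0.56 (SE 0.32). TPM3 differed by -0.52 (SE 0.31). ACTR1B had mean levels of -3.93 in senktide300 and -3.64 in senktide30 samples (difference -0.29, SE 0.60), from 0 and 2 arrays well above background.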
